A study of Mus musculus with 4 samples.

Results

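Mitosis and spindle genes, 45 genes whose products drive chromosomes through entry into mitosis, spindle assembly, segregation and the division of the cell, were examined in activated lung ILC2s. They were taken from a list of gene symbols, and all 45 of the symbols were found among the 22558 genes of the deposited count table and passed the filter on low values. ILC2s (group 2 innate lymphoid cells) lack antigen receptors and are known for making IL-5 and IL-13. Both groups were 6-week-old mice on a C57BL/6 background that received 3 intranasal doses of 0.5 µg recombinant mouse IL-33, an epithelial cytokine that activates ILC2s, on consecutive days. WT mice (wildtype) were compared with mice labelled ICAM-1 KO, a line with a germline mutation of the adhesion molecule gene Icam1 (tm1Jcgr) in all cells rather than in ILC2s alone. Lungs were taken on day 4, ILC2s were sorted as CD45+ lineage-negative ST2+ CD127+ cells, and each of the 2 libraries per group was a pool of 4 mice, so the spread between libraries is one between pools and not between single animals. No library came from mice without IL-33, so the levels below describe activated cells alone.

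Cells enter mitosis when the kinase CDK1, bound to cyclin A or B, is switched on by CDC25 phosphatases, while PLK1 and the Aurora kinases build the spindle and correct its attachments. The spindle assembly checkpoint holds the cell until every kinetochore is attached, and the anaphase-promoting complex with its activator CDC20 then triggers the destruction of the cyclins. The transcripts of most of these genes accumulate in the G2 and M phases and are low in resting cells, and their promoters are known for CCAAT boxes and for the cell cycle homology region (CHR), the site through which the MuvB complex recruits B-MYB (Mybl2) and FOXM1 or, in resting cells, the repressor p130 (Rbl2).

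The libraries held 24796148 to 28782471 counts on genes. Icam1, the gene targeted in the knockout, had normalized counts of 85.2 and 83.3 in WT and 97.6 and 110 in the KO-labelled libraries, and the log2 fold change was 0.33 (standard error, SE, 0.108, adjusted p = 0.0745, edgeR). Counts summed over a gene do not show which of its exons were read. Icam1 RNA was not lower in the KO-labelled libraries, so they are named after their labels. The study states that mice of this line lack ICAM-1, which it measured as protein by flow cytometry on lung ILC2s after IL-33. Genes of ILC2s, such as those for their cytokines and receptors, were above 0 in every library, with summed normalized counts of 9922 to 10322 over 19 genes in WT and 8356 to 8521 in the KO-labelled libraries. Markers of other cells moved with the groups and are given with the lists below.

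Promoter sequences were read for features that the choice of the genes did not use, and 37 of the 45 matched a RefSeq window of GRCm38.p6. It runs from 250 bases before to 50 bases after a transcript start, called the start below. The first window listed for a gene was used, and its start need not be that of the gene. The windows of Kif2c, Cdca8 and Cdca3, for example, lie inside the gene. Both strands were searched for the CHR (TTTGAA or TTCGAA), the CCAAT box (CCAAT) and an E2F site (TTGGCGC or TTCGCGC or TTCCCGC), of which the first E2F form can overlap a CCAAT box on the other strand. A CHR was found in 30 of the 37 windows (81.1%), against 19.4% of the windows of 27025 genes and 22.4% of those of 49 genes for DNA replication and S phase. A CCAAT box was found in 28 (75.7%, against 37.9% of all and 61.2% of the S phase genes). At least 2 of them were found in 19 (51.4%, against 12.2% and 40.8%). A CHR together with a CCAAT box was found in 26 (70.3%, against 7.7% and 16.3%). An E2F match was found in 5 (13.5%, against 8.21% of all and 57.1% of the S phase genes), and other forms of the site were not searched. Of 64 windows of further mitotic genes outside the list, 62.5% held a CHR and 65.6% a CCAAT box. At least 2 CCAAT boxes were in 40.6%, a CHR with a CCAAT box in 46.9% and an E2F match in 31.2%. Matches of letters are a description and do not show binding. The windows of Birc5, Mad2l1, Mybl2, Nuf2 and Nusap1 held none of the searched forms, and those of Ccnb1 and Cenpe held a CCAAT box but no CHR.

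**Figure D1:**
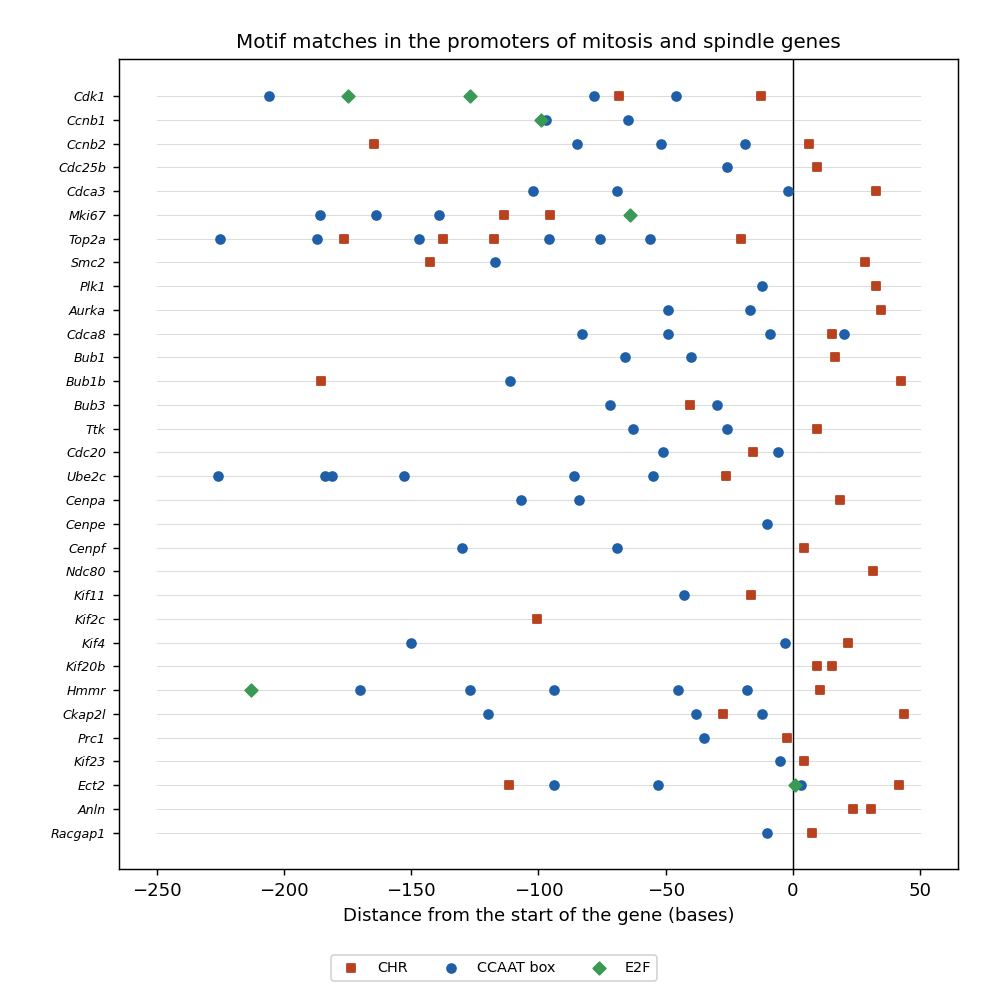
Positions of the motif matches in the promoter windows of the 32 mitosis and spindle genes that hold at least 1, by distance in bases from the transcript start of the window (negative: before it). Squares are CHR, circles CCAAT boxes and diamonds E2F matches. CCAAT boxes lie before the start in all 28 genes that have one, and CHR matches lie only after the start in 16 of 30.

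The 120 bases before the start are printed for 3 of the 4 genes called below (Cdc25b, Aurka and Mybl2) and for Ccnb2, Top2a and Mki67, 5′ to 3′ on the strand of the gene, with motif matches in capitals (ATTGG is a CCAAT box and TTCAAA a CHR on the other strand). They show the range from several boxes to none. The remaining called gene, Cenpa, is not printed because its window overlaps an annotated exon of its own, and its CCAAT boxes began 109 and 86 bases before the start.
Cdc25b (chr2:131186828-131186947, plus strand): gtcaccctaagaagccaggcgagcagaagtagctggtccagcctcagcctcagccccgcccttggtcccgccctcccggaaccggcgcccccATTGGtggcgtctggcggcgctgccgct
Aurka (chr2:172370571-172370690, minus strand): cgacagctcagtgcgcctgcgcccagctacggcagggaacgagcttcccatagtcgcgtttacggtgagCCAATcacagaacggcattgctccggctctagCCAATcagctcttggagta
Ccnb2 (chr9:70421555-70421674, minus strand): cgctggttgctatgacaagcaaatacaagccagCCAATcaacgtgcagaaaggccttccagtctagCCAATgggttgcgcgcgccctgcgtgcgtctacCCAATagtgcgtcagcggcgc
Top2a (chr11:99024190-99024309, minus strand): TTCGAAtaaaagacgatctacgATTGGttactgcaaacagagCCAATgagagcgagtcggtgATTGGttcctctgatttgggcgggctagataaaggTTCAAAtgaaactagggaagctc
Mki67 (chr7:135716380-135716499, minus strand): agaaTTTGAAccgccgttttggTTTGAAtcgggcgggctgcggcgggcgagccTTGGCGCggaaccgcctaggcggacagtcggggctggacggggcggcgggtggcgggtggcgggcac
Mybl2 (chr2:163054515-163054634, plus strand): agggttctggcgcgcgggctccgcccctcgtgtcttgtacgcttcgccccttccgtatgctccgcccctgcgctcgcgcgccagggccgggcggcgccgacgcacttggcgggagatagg

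Cdc25b had 1 CCAAT box that began 28 bases before the start, Aurka had a pair at 51 and 19 bases, and Ccnb2 had 3 at 87, 54 and 21 bases. Top2a held 3 CCAAT boxes and 2 CHR matches in this stretch, and Mki67 held 2 CHR matches and 1 E2F match. Mybl2 held no match to the searched forms. Its stretch holds ttggcgg, which differs from a searched E2F form in the last letter alone. The CHR of Cdc25b, Aurka, Cenpa and Ccnb2 that lay nearest the start was within the 50 bases after it and is not shown. Members with and without a CHR had median log2 fold changes of -0.03 (30 genes) and -0.14 (7 genes), and members with and without a CCAAT box 0.01 (28 genes) and -0.26 (9 genes). These medians are a description, with no test.

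The mitosis and spindle genes were all transcribed in both groups. Their counts ran from 337 for Cdc25c in one KO-labelled library to 13835 for Top2a in a WT library. Per kilobase of exon, the scale on which genes can be compared with each other, the normalized count in WT was highest for Ube2c (73.0), the ubiquitin-conjugating enzyme of the anaphase-promoting complex, followed by the cyclin Ccnb2 (65.7), Birc5 (54.1), the cyclin Ccna2 (53.5) and Cdc20 (49.8). It was lowest for Anln (1.89), Cdc25c (2.30), Cenpf (3.69) and Ttk (4.68), so the level spanned 38.6-fold from first to last. Length here is that of all annotated exons of a gene together. The longest transcript differs from it to unlike degrees (5221 against 9013 bases for Top2a, 1531 in both for Ccnb2). The order and the span depend on the length used. In the KO-labelled libraries, Ccnb2 (80.5) came first and Ube2c (61.3) next. Cdc25b moved from place 24 to place 9 and Cenpa from 25 to 16 in this order, while Mybl2 moved from 23 to 28 and Aurka from 21 to 26. Neighbours in the order, such as Birc5, Ccna2 and Cdc20 in WT, differed by less than the spread between their libraries.

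**Figure D2:**
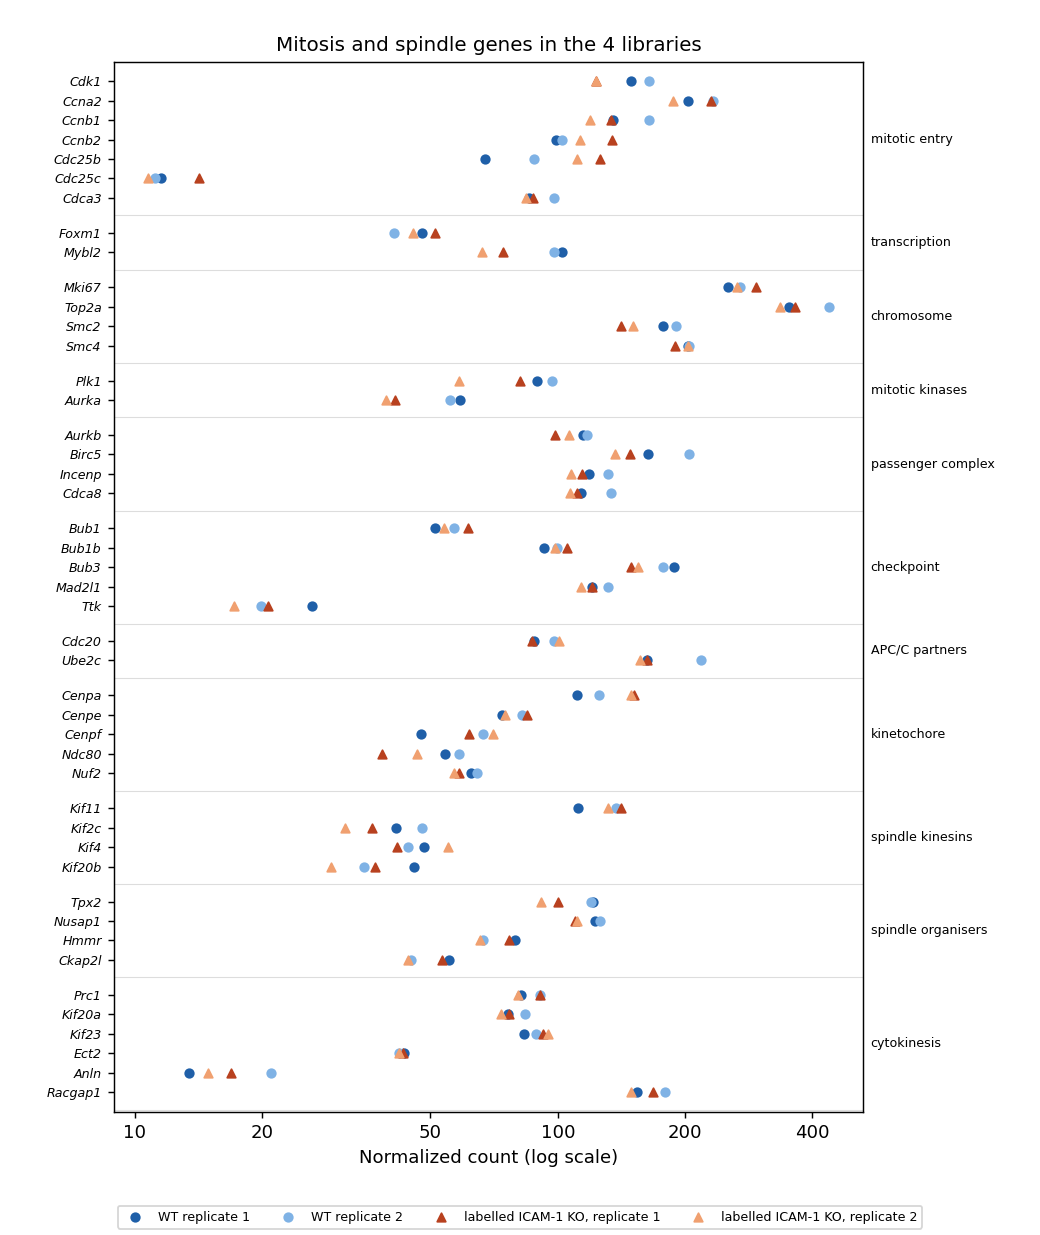
Normalized count (log scale) of the 45 mitosis and spindle genes in each library, grouped by role; circles are WT and triangles are the KO-labelled libraries, dark for replicate 1 and light for replicate 2. The groups do not overlap for 21 genes, 17 of them lower and 4 higher in the KO-labelled libraries, beside 31.3% of all genes that were lower and 28.3% that were higher without overlap.

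Between the groups, 2 of the 45 genes were lower (Mybl2 and Aurka) and 2 were higher (Cdc25b and Cenpa) in the KO-labelled libraries at an adjusted p under 0.05 (quasi-likelihood test of edgeR, Benjamini-Hochberg adjustment over 11711 genes). That is 8.89% of the list, beside 13.8% of all genes tested, of which 4.97% were lower and 8.8% were higher. None of the 45 changed by 2-fold or more, beside 5.47% of all genes that were called and did. The median log2 fold change was -0.07 (quartiles -0.24 and 0.09, range -0.49 to 0.64), beside 0.01 for all genes tested. At an unadjusted p under 0.05 there were 10 lower and 3 higher genes (over all genes, 13.1% passed that limit as lower and 17.1% as higher, 30.2% together). Estimates were below 0 for 29 and above 0 for 16. Without WT replicate 2 the median was -0.000296 and the split 23 to 22, and scaled to total counts alone the split was 25 to 20. The 95% intervals of all 45 genes, each for a single gene, lay between -0.76 and 0.95 on the log2 scale and so within 2-fold. For 32 of them the interval lay within 1.5-fold. A p that misses the threshold does not show that a gene was equal in both groups.

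**Figure D3:**
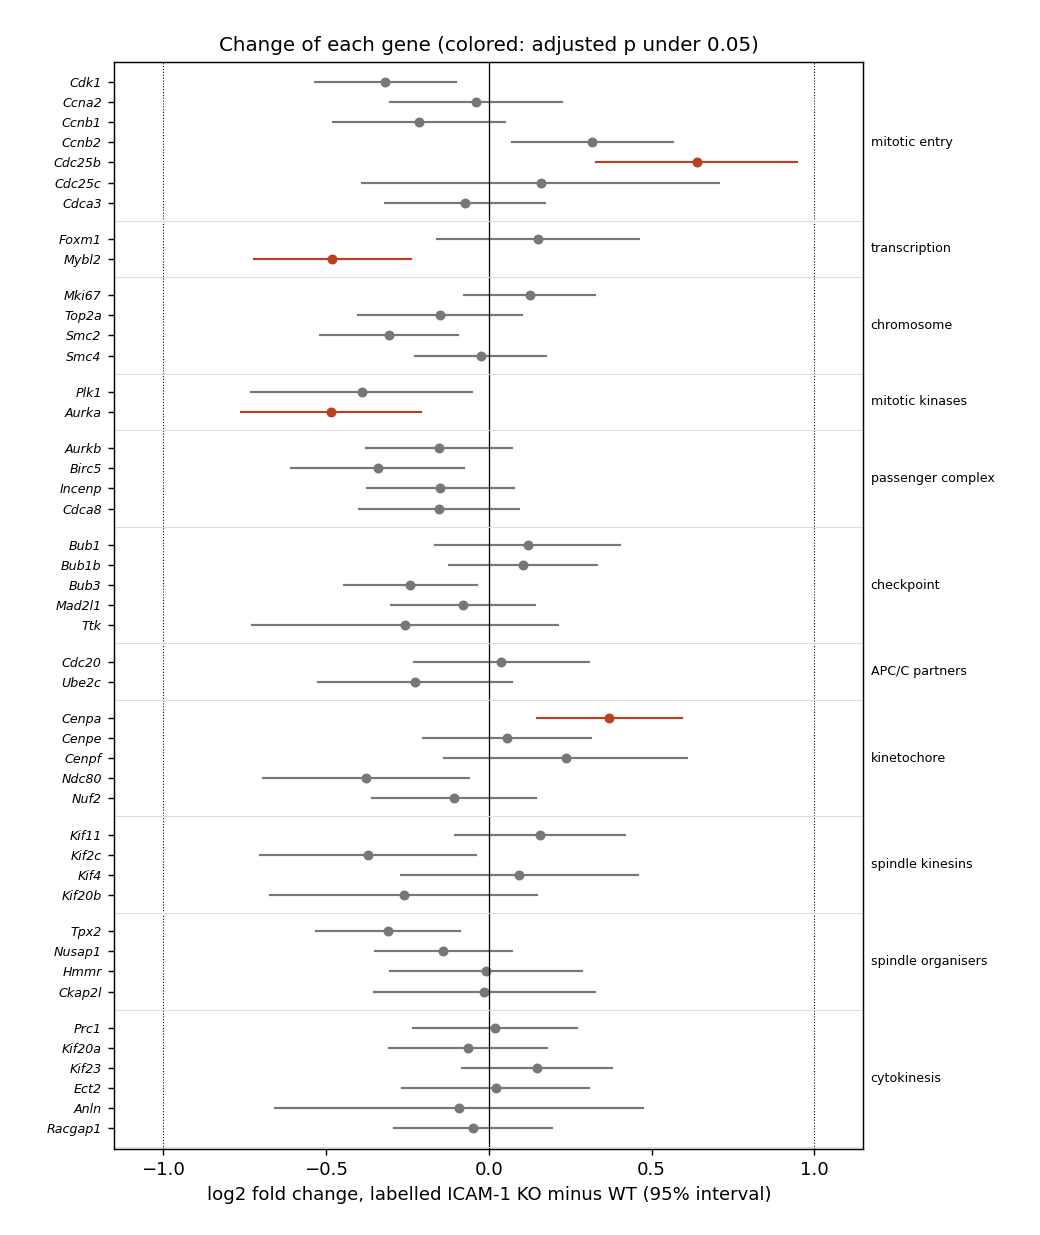
Log2 fold change of each mitosis and spindle gene, KO-labelled libraries minus WT, with its 95% interval; colored points have an adjusted p under 0.05 and dotted lines mark 2-fold. Mybl2 and Aurka lie lowest (-0.48 and -0.49), Cdc25b (0.64) and Cenpa (0.37) highest, and 32 of the 45 intervals hold 0.

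The median difference between the replicates of a group was near that between the group means. A mean of 2 libraries varies less than a single library, so these differences are not measured alike. The median absolute difference over the 45 genes was 0.15 between the WT libraries, 0.15 between the KO-labelled libraries and 0.17 between the group means, all on the log2 scale, beside 0.18, 0.17 and 0.26 for all genes. The group difference exceeded both replicate differences in 17 of the 45 genes (37.8%, beside 48.2% of all genes). Most genes of the list differed in the same direction between the replicates of a group. WT replicate 2 was above WT replicate 1 in 33 genes (5997 of all 11711 genes). Replicate 1 of the KO-labelled libraries was above replicate 2 in 34 (5702 of all). Of the 45 genes, 21 were highest in WT replicate 2 and 24 were lowest in replicate 2 of the KO-labelled libraries.

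The genes of mitotic entry differed among themselves. Cdc25b, a phosphatase that switches CDK1 on, lies on chromosome 2 (131186949 to 131198497, plus strand, mm10) and had normalized counts of 67.3 and 87.7 in WT and 126 and 111 in the KO-labelled libraries. Both of the latter were above both WT libraries. It rose by 0.64 on the log2 scale (SE 0.137, 95% interval 0.33 to 0.95, adjusted p = 0.0182, edgeR). Without WT replicate 1 the change was 0.46 with an adjusted p of 0.0792 in edgeR. Spef1 overlaps the gene on the other strand. Its paralogue Cdc25c had the fewest reads of the list, with 11.5 and 11.1 in WT and 14.2 and 10.8 in the other group, and the groups overlapped.

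Cdk1, the kinase itself, had normalized counts of 149 and 164 in WT and 123 in each KO-labelled library. These did not overlap, and the log2 fold change was -0.32 (95% interval -0.53 to -0.10, adjusted p = 0.0577, edgeR). It passed the threshold with DESeq2 (adjusted p = 0.0231) and with limma (adjusted p = 0.0422). Over the 10 alternatives, which keep all libraries, its adjusted p ran from 0.0231 to 0.101. With 1 library left out, its log2 fold change ran from -0.388 to -0.245. Ccnb2, a B-type cyclin, had higher values in the KO-labelled libraries, with 98.8 and 103 in WT against 134 and 113 (log2 fold change 0.32, adjusted p = 0.0852, edgeR). Ccnb1, the other B-type cyclin, had 135 and 164 in WT and 134 and 119 in the KO-labelled libraries. WT replicate 1 was nearly level with replicate 1 of the other group, and the log2 fold change was -0.22 (95% interval -0.48 to 0.05, adjusted p = 0.253, edgeR). Ccna2, the A-type cyclin, and Cdca3 overlapped between the groups.

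Of the transcription factors of the mitotic genes, Mybl2 fell and Foxm1 did not pass the test. Mybl2, which encodes B-MYB (chromosome 2, 163054687 to 163084688, plus strand), had normalized counts of 102 and 97.7 in WT and 74.3 and 66.3 in the KO-labelled libraries. All WT values were above all values of the other group, and the fall of 28.4% (log2 fold change -0.48, SE 0.106, 95% interval -0.72 to -0.24) had an adjusted p of 0.0203 in edgeR. Left out in turn, WT replicate 1, WT replicate 2 and replicate 2 of the KO-labelled libraries took its adjusted p in edgeR to 0.0848, 0.0629 and 0.0887. Foxm1 had 47.7 and 41.1 in WT and 51.3 and 45.5 in the other group (log2 fold change 0.15, 95% interval -0.16 to 0.46, adjusted p = 0.504, edgeR), and the groups overlapped. Foxm1 shares part of its span with Gm44596 and Tex52 on the same strand.

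Among the genes of chromosome structure, the proliferation marker Mki67, which encodes the Ki-67 coat of mitotic chromosomes, had normalized counts of 253 and 269 in WT and 294 and 265 in the KO-labelled libraries. The groups overlapped, and the log2 fold change was 0.13 (95% interval -0.08 to 0.33, adjusted p = 0.381, edgeR). The study measured Ki-67 protein by flow cytometry in other mice, which held a mix of WT and ICAM-1-deficient bone marrow. After IL-33 it reported a lower frequency of Ki-67 in ICAM-1-deficient than in WT lung ILC2s. Protein in single cells and RNA in bulk samples are unlike measures. Top2a, topoisomerase IIα, which untangles sister chromatids, had 352 and 438 in WT and 364 and 335 in the other group (log2 fold change -0.15, 95% interval -0.40 to 0.10, adjusted p = 0.402, edgeR). The highest and the second lowest of its values were both WT. Smc2, a condensin ATPase, did not overlap between the groups, with 178 and 190 in WT and 141 and 151 in the other group (log2 fold change -0.31, adjusted p = 0.0614 in edgeR, 0.0229 in DESeq2 and 0.0417 in limma, and 0.0229 to 0.103 over the alternatives). Its partner Smc4 had 203 and 204 in WT and 189 and 203 in the KO-labelled libraries, a log2 fold change of -0.03 with an interval of -0.23 to 0.18.

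Both mitotic kinases were lower in estimate, and Aurka passed the test. Aurka, the kinase of centrosomes and spindle poles (chromosome 2, 172356190 to 172370535, minus strand), had normalized counts of 58.7 and 55.7 in WT and 41.2 and 39.2 in the KO-labelled libraries. The groups lay apart by more than their replicates did, and the gene fell by 28.6% (log2 fold change -0.49, SE 0.122, 95% interval -0.76 to -0.21, adjusted p = 0.0336, edgeR). With any of the 4 libraries left out, its adjusted p in edgeR was 0.0761 to 0.117 (0.117 without WT replicate 1, 0.0799 without WT replicate 2, and 0.0761 and 0.115 without replicates 1 and 2 of the KO-labelled libraries), while the estimate stayed between -0.52 and -0.45. Plk1, polo-like kinase 1, had 89.2 and 97.0 in WT and 81.5 and 58.3 in the other group (log2 fold change -0.39, adjusted p = 0.117, edgeR). Its lowest value was replicate 2 of the KO-labelled libraries, and without replicate 1 of that group the log2 fold change was -0.64 with an adjusted p of 0.00889 in edgeR, while without replicate 2 it was -0.18 with an adjusted p of 0.531.

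The 4 genes of the chromosomal passenger complex, which corrects wrong attachments and guides cytokinesis, were lower in estimate without overlap between the groups, beside 31.3% of all genes with both KO-labelled libraries below both WT. None passed the test. Birc5 (survivin) had normalized counts of 164 and 204 in WT and 149 and 137 in the other group (log2 fold change -0.34, adjusted p = 0.086 in edgeR and 0.034 in DESeq2, and 0.034 to 0.155 over the alternatives). Without WT replicate 1 its log2 fold change was -0.49 (adjusted p = 0.048, edgeR), and without WT replicate 2 it was -0.17 (adjusted p = 0.38, edgeR). Aurkb, Incenp and Cdca8 had log2 fold changes of -0.15 each, with adjusted p of 0.332 to 0.38 in edgeR.

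None of the 5 checkpoint genes passed the test. Bub3, a kinetochore adaptor of the checkpoint, had normalized counts of 188 and 178 in WT and 149 and 155 in the KO-labelled libraries, which did not overlap (log2 fold change -0.24, adjusted p = 0.109, edgeR). The kinase Bub1 (0.12), its relative Bub1b (0.11), Mad2l1 (-0.08) and the kinase Ttk (-0.26) overlapped between the groups, the values being log2 fold changes. Of the partners of the anaphase-promoting complex, Ube2c had 162 and 218 in WT and 162 and 157 in the other group (log2 fold change -0.23, adjusted p = 0.281, edgeR). Its WT replicate 1 was level with replicate 1 of the KO-labelled libraries, and without WT replicate 2 the log2 fold change was -0.000296. Cdc20 overlapped between the groups, with a log2 fold change of 0.04 (95% interval -0.23 to 0.31).

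Centromere and kinetochore genes differed in direction, with 2 below and 3 above 0 in log2 fold change. Cenpa, the histone H3 variant that marks the centromere (chromosome 5, 30666777 to 30674830, plus strand), had normalized counts of 111 and 125 in WT and 151 and 149 in the KO-labelled libraries. Both of the latter were above both WT libraries, and the gene rose by 29.3% (log2 fold change 0.37, SE 0.0988, 95% interval 0.15 to 0.59, adjusted p = 0.0395, edgeR). It missed the threshold with any 1 library left out (adjusted p in edgeR 0.164 and 0.0594 without WT replicates 1 and 2, and 0.0921 and 0.0915 without replicates 1 and 2 of the KO-labelled libraries). Ndc80, a subunit of the complex that grips microtubules, had 54.1 and 58.4 in WT and 38.4 and 46.4 in the other group (log2 fold change -0.38, adjusted p = 0.105, edgeR). Its partner Nuf2 had a log2 fold change of -0.11, and Cenpe and Cenpf had 0.06 and 0.24 with overlapping groups.

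Of the motors and spindle organisers none passed the test. Kif2c, a kinesin that shortens microtubules at centromeres, had normalized counts of 41.5 and 47.8 in WT and 36.4 and 31.4 in the KO-labelled libraries (log2 fold change -0.37, adjusted p = 0.125, edgeR). Kif11 (0.16), which pushes spindle poles apart, Kif4 (0.09) and Kif20b (-0.26) overlapped between the groups in their normalized counts. Tpx2, the activator of Aurora A on the spindle, had 121 and 120 in WT and 99.9 and 91.2 in the other group, with no overlap (log2 fold change -0.31, adjusted p = 0.0675 in edgeR and 0.0415 in DESeq2, and 0.0415 to 0.114 over the alternatives). Nusap1 had a log2 fold change of -0.14, and Hmmr (-0.01) and Ckap2l (-0.01) were near 0 and changed sign with the scaling.

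The genes of cytokinesis had the smallest median absolute difference between the group means of all the role groups, 0.08 on the log2 scale. Kif23, a motor of the central spindle, had normalized counts of 83.2 and 88.8 in WT and 92.2 and 94.9 in the KO-labelled libraries (log2 fold change 0.15, adjusted p = 0.364, edgeR). It did not overlap, although the step between the nearest libraries was smaller than that between the WT replicates. Its partner Racgap1 (-0.05), the exchange factor Ect2 (0.02), the bundling protein Prc1 (0.02), Kif20a (-0.06) and Anln (-0.09), which encodes the contractile ring protein anillin, had log2 fold changes near 0 and overlapped between the groups. The median over the 6 was -0.01.

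The neighbouring lists of the cell cycle were set beside these genes. Of 78 further mitotic genes, 12 had an unadjusted p under 0.05 in edgeR, 11 of them lower. Over all genes, 13.1% passed that limit as lower and 17.1% as higher. At an adjusted p under 0.05, 1 of the 78 was lower (1.28%, beside 4.97% of all genes) and 0 were higher. The median log2 fold change was -0.09. The lower one was Pbk, a mitotic kinase (-0.53, adjusted p = 0.0276, edgeR), which missed the threshold without WT replicate 1 (0.0773), WT replicate 2 (0.1) or replicate 1 of the KO-labelled libraries (0.116). Oip5 (-0.59) and Kif14 (-0.91) were the next by p, with adjusted p of 0.0601 and 0.0627 in edgeR. Of 62 genes for DNA replication and S phase, 18 were lower in edgeR (29.0%, beside 4.97% of all genes) and 0 were higher. There 33 had an unadjusted p under 0.05, all lower. With DESeq2 or limma 0 of the S phase genes were higher. Their median was -0.33, and 57 were below 0. Those with the lowest p were Dut (-0.58), Tipin (-0.60) and Tk1 (-0.59), with adjusted p of 0.00418, 0.00661 and 0.00796 in edgeR. The count of 18 was 4 and 7 without WT replicates 1 and 2, and 11 and 8 without replicates 1 and 2 of the KO-labelled libraries. The difference between the lists was not tested.

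**Figure D4:**
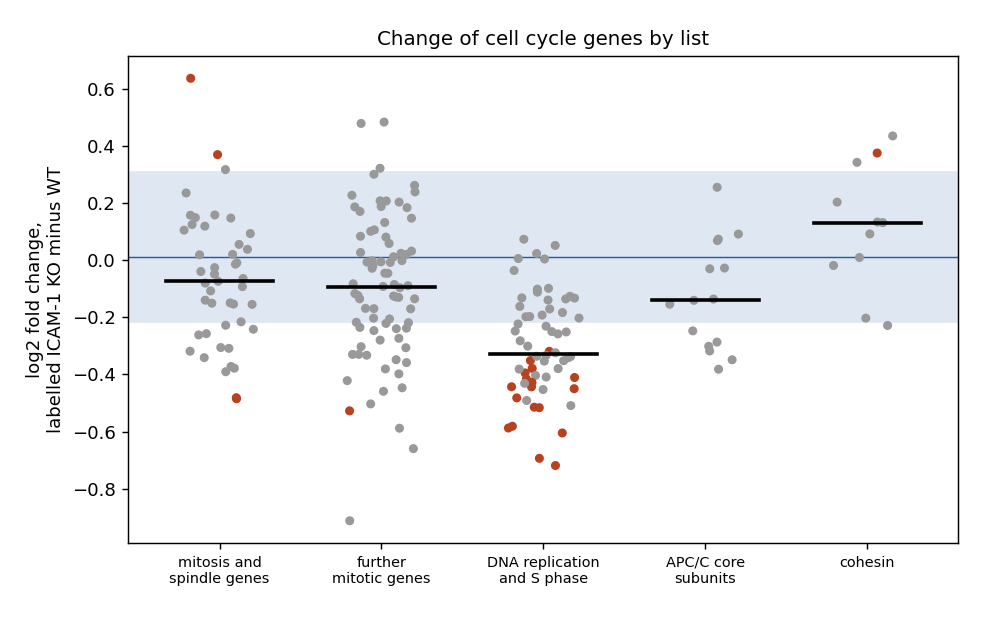
Log2 fold change, KO-labelled libraries minus WT, of every tested gene in 5 cell cycle lists (points; colored at an adjusted p under 0.05), with the list median as a black line; the band spans the quartiles of all 11711 genes and the blue line is their median. The median is -0.07 for the mitosis and spindle genes and -0.33 for the S phase genes.

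In sum over genes, the 45 had 4697 and 5165 normalized counts in WT and 4741 and 4476 in the KO-labelled libraries. The groups overlapped, since WT replicate 1 was below replicate 1 of the other group. The 78 further mitotic genes summed to 5214 and 5726 in WT and 5037 and 5135 in the KO-labelled libraries, which did not overlap, although the step between the nearest libraries was smaller than that between the replicates of either group. The S phase genes summed to 9107 and 8650 in WT and 7164 and 7064 in the KO-labelled libraries and did not overlap. The ratio of the mitotic to the S phase sum was 0.516 and 0.597 in WT and 0.662 and 0.634 in the KO-labelled libraries, higher in both of the latter. In bulk samples, fewer dividing cells and less RNA per dividing cell cannot be told apart.

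**Figure D5:**
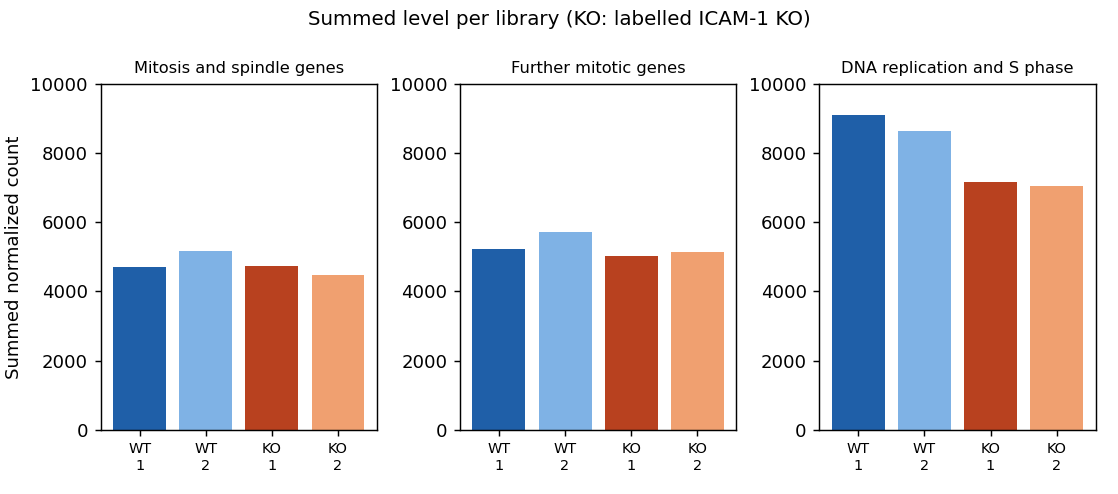
Summed normalized count per library (bars from 0) of the 45 mitosis and spindle genes, 78 further mitotic genes and 62 S phase genes. The sums overlap between the groups for the first list and do not for the further mitotic genes (5214 and 5726 in WT, 5037 and 5135 in the KO-labelled libraries) or the S phase genes, which have 9107 and 8650 in WT and 7164 and 7064 in the KO-labelled libraries.

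The regulators that act through the promoter sites above were also read. Of 12 genes of the MuvB core and its partners, Rbl2, which encodes p130, rose from 133 and 130 normalized counts in WT to 308 and 271 in the KO-labelled libraries (log2 fold change 1.16, SE 0.0940, adjusted p = 0.000333, edgeR), and Tfdp1, the partner of E2F proteins, fell (-0.36, adjusted p = 0.0248, edgeR). Lin54, the MuvB subunit that binds the CHR, had 0.45 (adjusted p = 0.0611, edgeR), and Mybl2, a member of the list above, fell. Of 14 tested genes of G1 control, 3 were lower (21.4%, beside 4.97% of all genes) and 2 were higher (14.3%, beside 8.8%). The kinase gene Cdk4 fell (-0.44, adjusted p = 0.0126), and the CDK inhibitor genes Cdkn1c (1.97, adjusted p = 0.0227) and Cdkn1b (0.70, adjusted p = 0.0373) rose, by edgeR. Tfdp1 and Cdkn1b missed the threshold with any 1 library left out (adjusted p in edgeR from 0.0564 to 0.168), Cdk4 without WT replicate 1 (0.0724), and Cdkn1c without WT replicate 1, WT replicate 2 or replicate 2 of the KO-labelled libraries (0.112, 0.0756 and 0.0839).

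Of 15 core subunits of the anaphase-promoting complex, 0 passed the test in edgeR, with a median of -0.14. An unadjusted p under 0.05 was found for 4, all lower, beside 13.1% of all genes lower and 17.1% higher. Anapc7 (-0.38), Anapc11 (-0.29) and Anapc16 (-0.30) had the lowest p. Of 11 cohesin genes, which hold sister chromatids together, 1 was higher (9.09%, beside 8.8% of all genes). It was Pds5a (0.38, adjusted p = 0.0374, edgeR), followed by Stag2 (0.44) and Nipbl (0.34), and the median of the list was 0.13. Pds5a missed the threshold with any 1 library left out (adjusted p in edgeR from 0.0547 to 0.156).

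Markers of cells that the sort should remove moved with the groups. Of 15 T cell and regulatory T cell genes, 9 were higher in the KO-labelled libraries, with summed normalized counts of 1061 to 1271 in WT and 1703 to 1987. Of 12 tested B and plasma cell genes 8 were higher (1168 to 2452 against 4587 to 6402), of 17 endothelial genes 17 (305 to 313 against 793 to 812), of 17 macrophage genes 11 (570 to 586 against 981 to 1214), of 12 epithelial genes 8 (282 to 490 against 736 to 1633), and of 13 granulocyte genes 6 were higher and 2 lower (524 to 594 against 630 to 750). Of the 19 ILC2 genes 2 were higher and 6 lower. Over all genes tested, 8.8% were higher and 4.97% lower. No listed marker was at 0 in all libraries. The part of these other cells in the values of the mitosis and spindle genes was not tested. Nor was it tested for the other cell cycle lists and regulators above, Rbl2, Cdkn1c and Cdkn1b among them.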

How the data were processed

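RNA of sorted aILC2s was made into cDNA with a low-input kit and sequenced. Alignment by the authors used STAR, mm10 and GENCODE M20, and they deposited expected counts per gene, estimated in Partek with reads that fit several genes split between them. The STAR version given in the study's methods differs from the one in the submitters' processing notes. The authors also deposited a normalized signal, made by the upper quartile method, in which each value is the expected count plus 1 multiplied by 1 factor per library. This signal is the normalized count given here. Gene ends are given 1 base before the deposited ones, which then match the annotation.

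Groups came from the sample labels. Expected counts were rounded and tested with edgeR 4.0.16 (glmQLFit with legacy set to FALSE, glmQLFTest, upper quartile factors, no covariate) in R 4.3.3, over 11711 genes (normalized counts with a mean of 1 or more and a sum of 10 or more). Genes were called at a Benjamini-Hochberg adjusted p under 0.05. DESeq2 1.42.0, limma 3.58.1 (log2 of the normalized count plus 1 or 0.1) and other settings were alternatives. The tests were run on simulated counts with changes of 2-fold or more. That check did not cover smaller changes, such as those of the 45 genes. Exon lengths and overlaps came from GENCODE M21, whose coordinates equal those deposited for 21880 of 22558 genes. Promoter windows came from RefSeq (GRCm38.p6). Overlapping genes can share reads, since strand use in the counting is not stated (11 of the 45 overlap a gene on the same strand and 19 one on the other). Intervals cover the spread between libraries. The members and lists were chosen with earlier results of these data known. Full values are given for called members, the member with the lowest p in each role group, and Mki67, Top2a, Cdk1, Ccnb1, Foxm1 and Mybl2; other lists are named by their 3 lowest p.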

Additional observations from a re-analysis of the deposited data

How the results depend on the processing

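With 2 libraries per group each gene has 2 residual degrees of freedom of its own. The edgeR test also borrows information on the spread from other genes. Its p-values and intervals therefore rest on more than the 2 libraries per group, and the intervals are narrower than those libraries alone would give. A library left alone in its group by leaving out the other is assumed to vary like the other group. The median 95% interval of the mitosis and spindle genes was 0.52 wide on the log2 scale from its lower to its upper end, which limits what small changes can show.

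The same 4 genes passed the threshold with TMM factors, the older form of the edgeR test, counts that were not rounded and total counts alone, a scaling chosen after seeing the data. Genes lower among the 45 numbered 6 with DESeq2, 4 with limma at either pseudocount and 0 without the filter on low counts. Of all 11711 genes, 930 were lower with DESeq2, and 761 and 725 with limma at pseudocounts of 1 and 0.1. Without the filter 201 of 22211 were lower. So the comparison of the list with all genes depends on the method. Genes higher with DESeq2 numbered 2 among the 45 and 1261 among all. Genes higher numbered 0 without the filter, and 1 with filterByExpr or with limma at a pseudocount of 0.1, where Cenpa was lost (adjusted p of 0.0718 and 0.0502). Without the filter, 22211 genes were tested, and the adjusted p of Cdc25b, Mybl2, Aurka and Cenpa was 0.0997, 0.0654, 0.0775 and 0.135. Over the alternatives that keep all libraries, the lowest adjusted p of these genes was 0.000345, 0.00187, 0.00999 and 0.0129. Over all genes, 930 were lower with DESeq2, and 201 lower and 334 higher without the filter, where 5 S phase genes were lower. Further mitotic genes called lower numbered 7 with DESeq2, 2 with limma at either pseudocount and 0 without the filter, and their median log2 fold change was -0.139 without the filter and -0.0569 with total counts alone. With total counts alone, Icam1 had a log2 fold change of 0.366 (adjusted p = 0.0479).

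Leaving out 1 library at a time, called genes among the 45 ranged from 0 to 2 lower and from 0 to 1 higher, all genes from 158 to 388 lower and from 479 to 948 higher, S phase genes from 4 to 11 lower, and further mitotic genes from 0 to 2 lower. The medians ranged from -0.132 to -0.000296 for the 45 genes and from -0.314 to -0.254 for the S phase genes.

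Signs turned for genes near 0. With total counts alone, the log2 fold changes of Ccna2, Smc4, Hmmr and Ckap2l were 0.000895, 0.0112, 0.0292 and 0.0245. Without the filter, Cdc20 had -0.00682. Prc1 had -0.0256 without the filter, -0.0112 with filterByExpr, and -0.00639 and -0.00646 with limma at pseudocounts of 1 and 0.1. Ect2 had -0.0246, -0.00997, -0.0055 and -0.00562 under the same settings. Leaving out libraries, the ranges that crossed 0 were -0.188 to 0.0966 for Ccna2, -0.0368 to 0.338 for Cdc25c, -0.167 to 0.0272 for Cdca3, -0.299 to 0.0168 for Top2a, -0.0869 to 0.0333 for Smc4, -0.0869 to 0.153 for Cdc20, -0.0242 to 0.138 for Cenpe, -0.138 to 0.29 for Kif4, -0.13 to 0.123 for Hmmr, -0.154 to 0.141 for Ckap2l, -0.058 to 0.0956 for Prc1, -0.129 to 0.00543 for Kif20a, -0.375 to 0.269 for Anln and -0.156 to 0.0693 for Racgap1.

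The replicate numbers pair no animals, and libraries with the same number did not deviate together (correlation over genes -0.0663). With the replicate block 2 genes of the 45 were lower and 2 higher, the same genes, and 638 of all genes were lower and 1077 higher. Lin54 and Stag2 passed the threshold under it (adjusted p of 0.0391 and 0.0433), and no other named call changed.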
